A study of Mus musculus with 16 samples.

Results

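The genes described here encode the machinery that brings insulin granules to the plasma membrane of the pancreatic β cell and fuses them with it. They were taken by name: 42 genes whose symbol stands in the gene column of the RNA count table, of 22869 genes in that table, and all 42 were found. They were set apart by role into 8 SNARE proteins, 7 synaptotagmins, 14 genes for Rab3, Rab27 and the proteins that bind them, 11 priming, docking and SNARE-recycling factors, and 2 granule membrane tyrosine phosphatase-like proteins.

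Insulin is stored in dense-core granules, and a rise in cytosolic calcium makes docked granules fuse. Fusion is driven by SNARE proteins that zip together across the granule and plasma membranes, synaptotagmins sense the calcium, and Munc13, CAPS, complexins and tomosyn set how many granules are ready. Rab3 and Rab27 are small GTPases on the granule surface, and their effectors (rabphilin, granuphilin, RIM proteins and others) tether the granule to the membrane or to the cytoskeleton.

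β cells of old mice were compared with β cells of young mice, all sorted by flow cytometry. For RNA, the old group was 3 pools from mice of the MIP-GFP/Bl6 strain aged 15, 16 and 17 months, and the young group was 2 pools from the same strain aged 4 to 6 weeks. The reporter in that strain is a green fluorescent protein driven by an insulin promoter, and a pool held 5 to 10 mice. The design text counts 3 young RNA pools and 2 old H3K27me3 replicas, of which 2 young libraries and 1 old list are analysed here. Histone marks and cytosine methylation came from C57Bl6 mice aged 16 to 18 months (old) and 4 to 6 weeks (young), with 1 list or table per age, and H3K27ac was mapped in young cells only. The old H3K27me3 pools held 4 to 7 mice and the young bisulfite pool 10. The design text gives 18 to 22 months for the old bisulfite pool, against the age on its label.

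Sequencing depth, as counts over genes, was 23559908 to 33562822 in the old RNA libraries, against 6377619 and 12892123 in the young ones, which are named here by their depth. All 12 β-cell markers were detected in every library, and their summed level was 332428 to 437746 CPM (counts scaled to library size) in old libraries, against 257157 and 315508 CPM in young libraries. Markers of other cells, summed by cell type, were lower in every old library than in both young ones. Summed α-cell markers (8 genes) reached 912 to 1846 CPM in old libraries, against 2023 CPM (shallower) and 31738 CPM (deeper) in the young ones. Stromal markers (8 genes) reached 5.62 to 9.57 CPM in old libraries, against 321 and 3543 CPM in the young ones, and acinar markers (10 genes) 91.4 to 132 CPM, against 1478 and 2244 CPM. The acinar markers Amy2a5 and Ptf1a and the α-cell marker Pou3f4 had 0 counts in all old libraries, and no marker was at 0 in both young libraries. The part of such cells in the results on single genes was not tested.

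Promoter sequences are shown for 4 genes on which the results turn: Rph3a and Vamp8, whose RNA differed between the ages, Mlph, whose start passed the methylation call, and Cplx1, which had no RNA count in old cells. They are RefSeq sequences of the build GRCm38.p6, from 250 bases before to 50 bases after an annotated start (for Rph3a the entry nearest to the deposited start), and capitals mark the CpG sites, where methylation was measured. The entries are chr5:121009489-121009788 (minus strand) for Rph3a, chr6:72390618-72390917 (minus strand) for Vamp8, chr1:90914850-90915149 (plus strand) for Mlph and chr5:108549978-108550277 (minus strand) for Cplx1.
Rph3a: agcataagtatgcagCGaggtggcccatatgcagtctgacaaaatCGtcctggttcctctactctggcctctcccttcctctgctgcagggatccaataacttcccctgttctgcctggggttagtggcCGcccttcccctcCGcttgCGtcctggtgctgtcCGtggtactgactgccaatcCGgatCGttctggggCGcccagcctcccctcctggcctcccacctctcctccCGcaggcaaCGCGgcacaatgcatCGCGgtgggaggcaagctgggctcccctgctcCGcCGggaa
Vamp8: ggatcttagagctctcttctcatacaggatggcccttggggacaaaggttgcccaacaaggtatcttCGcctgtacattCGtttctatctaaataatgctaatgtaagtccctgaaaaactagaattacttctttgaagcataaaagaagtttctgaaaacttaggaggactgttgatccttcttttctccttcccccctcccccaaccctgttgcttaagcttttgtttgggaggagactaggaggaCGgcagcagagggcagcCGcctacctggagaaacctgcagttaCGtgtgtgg
Mlph: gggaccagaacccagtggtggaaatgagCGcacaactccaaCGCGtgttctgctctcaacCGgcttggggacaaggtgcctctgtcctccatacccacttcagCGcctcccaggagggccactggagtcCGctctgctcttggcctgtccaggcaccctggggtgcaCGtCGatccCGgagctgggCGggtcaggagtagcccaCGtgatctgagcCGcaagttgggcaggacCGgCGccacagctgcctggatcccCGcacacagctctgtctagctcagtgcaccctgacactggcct
Cplx1: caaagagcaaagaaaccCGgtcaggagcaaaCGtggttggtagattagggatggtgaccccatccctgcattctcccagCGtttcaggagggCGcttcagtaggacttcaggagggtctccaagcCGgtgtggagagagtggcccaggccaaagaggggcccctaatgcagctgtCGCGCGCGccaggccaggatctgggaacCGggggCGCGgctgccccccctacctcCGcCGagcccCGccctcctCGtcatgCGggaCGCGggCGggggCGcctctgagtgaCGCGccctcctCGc
The spacing of the CpGs placed each of these sequences on the deposited mm9 positions, with all CpGs matched. Rph3a had 16 CpGs in these 300 bases, Vamp8 5, Mlph 15 and Cplx1 24, where the median over the 32851 promoter entries was 7. Over the 39 entries of the 33 members found in that table the median was 18. No promoter entry was used for Vamp3, Syt7, Doc2b, Snap25, Syt5, Rims2, Vamp2, Rab27b and Syt13. The GC box GGGCGG stood on either strand in 24 of these 39 entries (61.5%), against 35.7% of all entries, and it is itself a CpG-containing motif. The TATA box TATAAA stood in 2 of them (Rab3b and Stx3; 5.13%), against 13.6% of all entries. The RE1 half-site TTCAGCACC, the left part of the element bound by the neuronal repressor REST, stood in 2 (Ptprn2 and Unc13a; 5.13%), against 0.371% of all.

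RNA levels of the exocytosis genes ran from 0 to over 1000 CPM, with Cplx1 the member that had no count in any old library, and most members did not differ between the ages beyond the spread of the libraries. Of 41 members tested with edgeR's quasi-likelihood test, 3 were higher in old cells (Rph3a, Vamp8 and Syt13) and 1 was lower (Rab27b) at an adjusted p under 0.05. That is 9.76% of the members, against 11.1% of the 15544 genes tested. Members made 7.32% higher calls against 3.17% of all genes, and 2.44% lower calls against 7.93% of all genes. The median log2 fold change (old over young) was 0.07 over the members and -0.05 over all genes, with 23 members above 0 and 18 below. With RLE factors in place of TMM the medians were -0.06 and -0.17, and the calls were 2 higher and 3 lower, so the sign of the members' median depends on the scaling. Their mean was -0.18, opposite in sign to the median, with the lowest member at -6.73. Of the 12 β-cell markers tested the same way, 3 were called higher in old libraries and 0 lower, with a median log2 fold change of 0.85. In these bulk samples a larger share of β cells and more RNA per cell cannot be told apart. Old and young libraries did not overlap in 13 members that were higher in old cells and 5 that were lower (31.7% and 12.2% of those tested), against 24.4% and 24.5% of all genes.

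**Figure D1:**
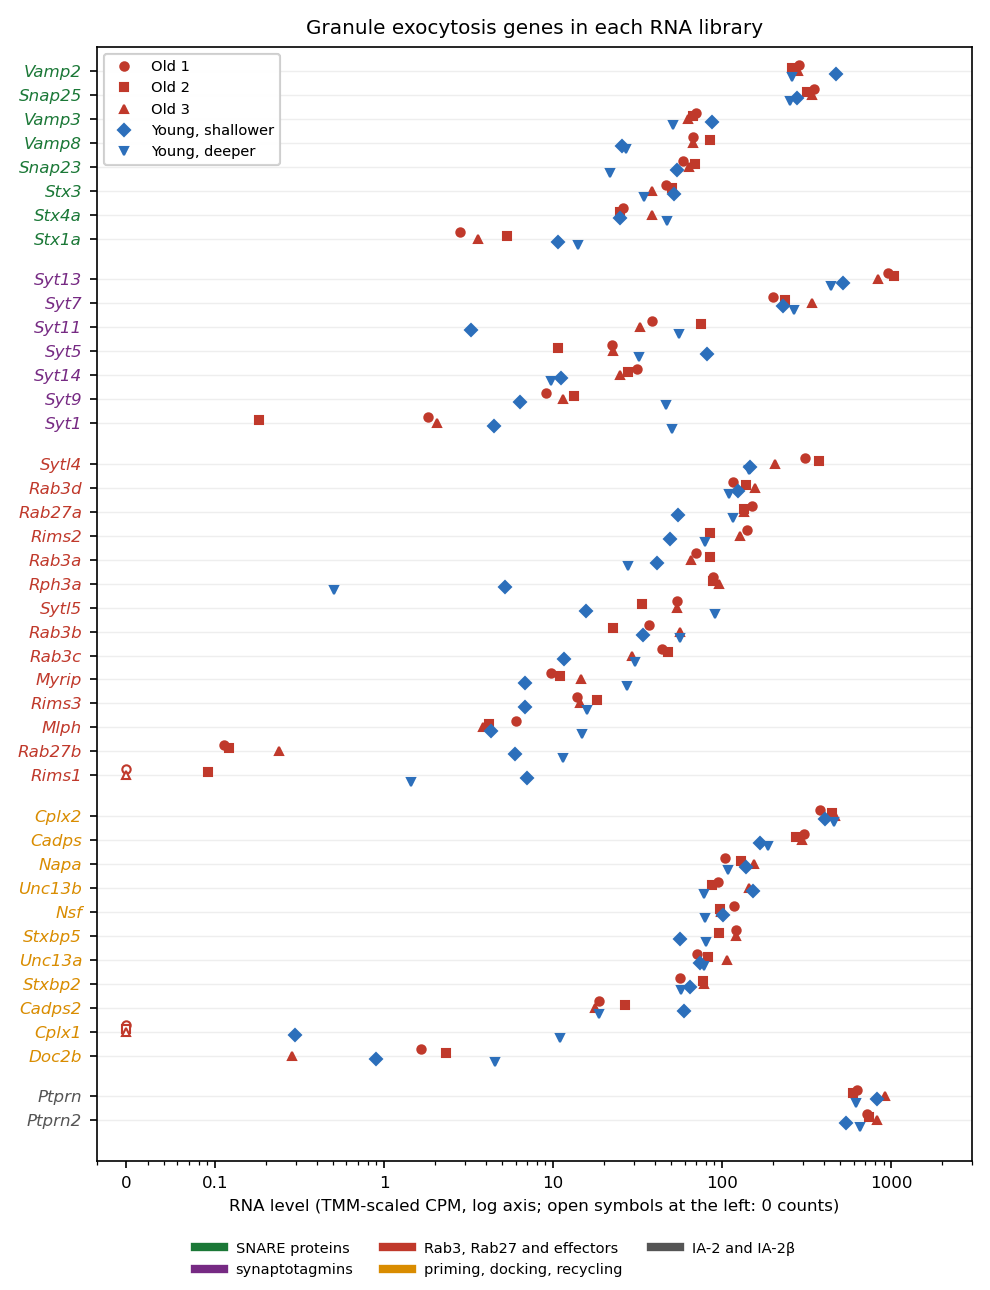
RNA level of the 42 genes in each library, as CPM scaled by TMM on a log axis, with 3 old libraries in red and 2 young libraries in blue; gene names are coloured by role, and open symbols at the left edge stand for 0 counts. Rph3a lies far to the right in the old libraries, at 87.8 to 95.6 CPM, against 0.507 and 5.20 CPM in the young ones, while Rab27b, Rims1 and Cplx1 lie far to the left.

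Of the 8 SNARE genes 1 was called, and their median log2 fold change was 0.01. Vamp8, the gene of an R-SNARE (endobrevin) used by newcomer and compound granule fusion, had 67.4, 84.7 and 67.0 CPM in the old libraries, against 25.4 and 27.1 CPM in the young ones. Every old library was above both young ones. Its log2 fold change was 1.47 (SE 0.30, edgeR adjusted p = 0.0241), a 2.78-fold difference of the group means. The gene lies at chr6:72335215-72340661 (mm9, minus strand). The call was lost without any 1 of the old libraries, with an edgeR adjusted p = 0.0734 to 0.103, while the value stayed at 1.32 to 1.54.

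Vamp2, the gene of synaptobrevin-2, the main granule SNARE for calcium-triggered fusion, had 284, 259 and 279.6 CPM in old libraries, against 468 CPM (shallower) and 260.2 CPM (deeper) in the young ones. The groups overlapped, and the log2 fold change was -0.41 (SE 0.28, adjusted p = 0.364, edgeR). It turned to 0.08 without the shallower young library, and was -0.76 and called without the deeper one (edgeR adjusted p = 0.0326). Vamp3 (cellubrevin) had 70.1, 67.3 and 62.6 CPM in old libraries, between the young values of 86.4 and 51.1 CPM. Snap25, the plasma membrane partner of syntaxin, had 347, 318 and 338 CPM in old libraries, against 278 and 252 CPM in young ones. All old values were higher, yet the log2 fold change of 0.33 (SE 0.21) did not pass, with adjusted p = 0.321 by edgeR. Stx1a, the syntaxin of the classical fusion complex, was low and had 2.83, 5.31 and 3.57 CPM in old libraries, against 10.7 and 14.0 CPM in young ones. The groups did not overlap, but the difference missed the edgeR threshold (log2 fold change -1.66, SE 0.67, edgeR adjusted p = 0.141). DESeq2 called Stx1a. The remaining SNAREs, Stx3, Stx4a and Snap23, had log2 fold changes of -0.28 to 0.75 and were not called.

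Counted per kb of transcript, which allows levels of different genes to be set side by side, Vamp8 made up 34.3, 41.6 and 35.0% of the summed level of Vamp2, Vamp3 and Vamp8 in old libraries, against 11.2 and 19.4% in young ones. Vamp2 made up 46.1 to 52.9% in old libraries, against 67.2 and 74.7% in young ones. These shares did not overlap between the ages. Snap25 made up 82.9 to 86.1% of Snap25 and Snap23 in old libraries, against 84.3 and 92.4% in young ones, and these overlapped.

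**Figure D2:**
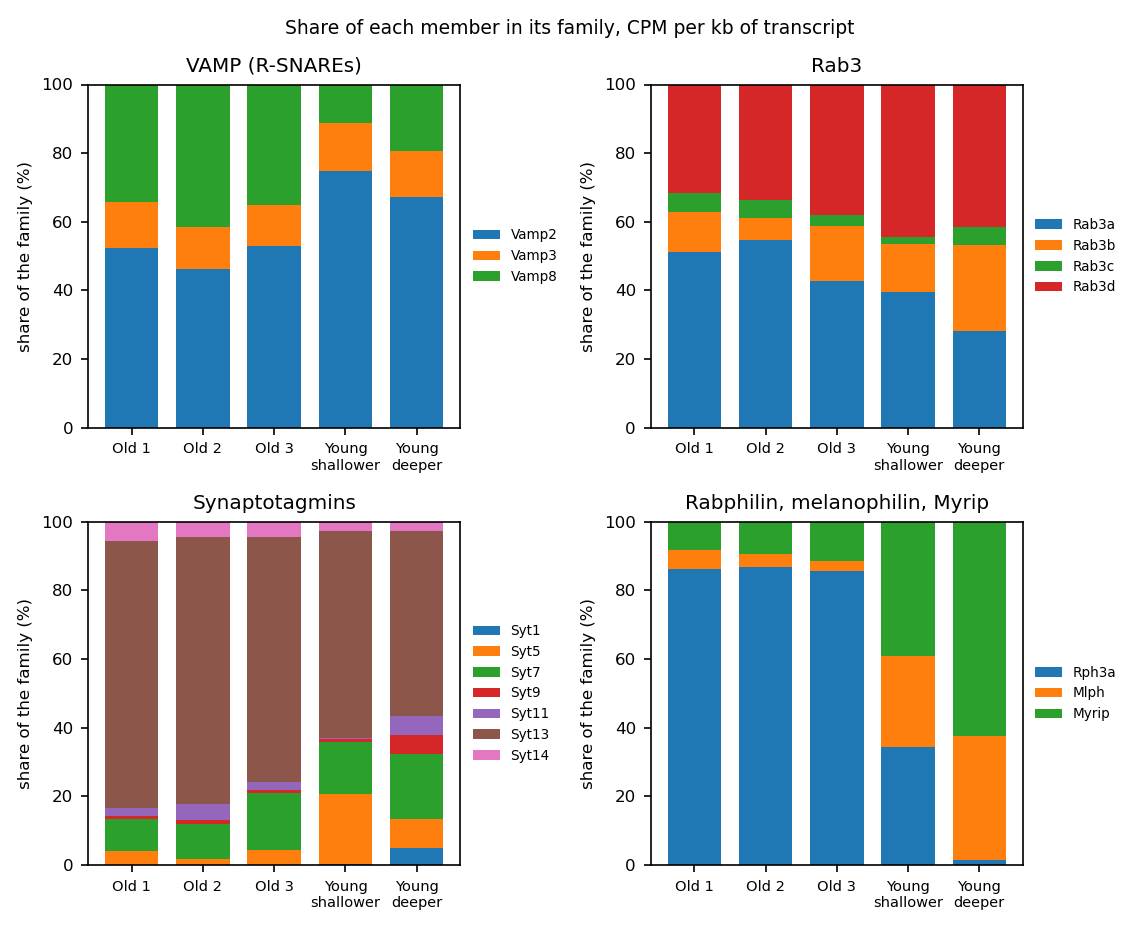
Share of each gene in the summed level of its family, in CPM per kb of transcript, in 3 old and 2 young libraries; each bar adds to 100%. Vamp8, Syt13, Rab3a and Rph3a take larger shares in every old library, and Rph3a makes up 85.5 to 86.8% of its group in old libraries, against 1.34 and 34.5% in young ones.

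Among the synaptotagmins, Syt13 was the highest and was called higher in old cells. Syt13, an atypical member that does not bind calcium in the usual way, had 959, 1032 and 838 CPM in old libraries, against 520.4 and 438 CPM in young ones. The groups were well apart, and the log2 fold change was 0.98 (SE 0.22, edgeR adjusted p = 0.0331). The gene lies at chr2:92755258-92796208 (mm9, plus strand). It lost the call without any 1 of the old libraries (edgeR adjusted p = 0.0731 to 0.135) and with RLE factors (adjusted p = 0.0525). Per kb it had the highest mean of all 42 members in old cells, at 252 CPM per kb, with a range of 224 to 275, which overlapped that of Ptprn (169 to 261). In young cells it ranked 3, at 128 CPM per kb. Syt13 made up 71.2 to 77.8% of the summed synaptotagmin level per kb in old libraries, against 53.9 and 60.3% in young ones.

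Syt7, a high-affinity calcium sensor of insulin release, had 200.4, 235 and 339 CPM in old libraries, against 227 and 266 CPM in young ones. The young values lay within the old range. Its log2 fold change was 0.07 (SE 0.28, adjusted p = 0.900, edgeR). Syt11, a member that does not sense calcium, had 38.3, 75.0 and 32.6 CPM in old libraries, while the young libraries differed widely, at 3.27 and 55.7 CPM. The log2 fold change of Syt11, 0.71, was -0.19 without the shallower young library, and 3.91 and called without the deeper one, which left the young library at 3.27 CPM alone (edgeR adjusted p = 0.00282). Syt5 had 22.4, 10.7 and 22.7 CPM in old libraries, against 81.5 and 32.0 CPM in young ones, with no overlap. The log2 fold change of Syt5, -1.61 (SE 0.50), had an edgeR adjusted p = 0.0753. It was -0.78 without the shallower young library, and -2.12 and called without the deeper one (edgeR adjusted p = 0.00501). It was also called without the filter on low counts (edgeR adjusted p = 0.0406) and by DESeq2 (adjusted p = 0.0175). Syt14 and Syt9 also missed the edgeR threshold. Syt14, another calcium-independent member, had a log2 fold change of 1.42 (SE 0.41, edgeR adjusted p = 0.0605) and was called by DESeq2. Syt9, a calcium sensor in insulin-secreting cells, had one of -1.23 (SE 0.73, edgeR adjusted p = 0.299) and was not.

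Syt1, the fast calcium sensor of synaptic vesicles, is given here after its values were seen. It had 1.81, 0.182 and 2.05 CPM in old libraries, against 4.46 CPM (shallower) and 50.4 CPM (deeper) in the young ones. The groups did not overlap, and the young libraries lay far apart. Its log2 fold change was -4.36 (SE 1.19, edgeR adjusted p = 0.0525). DESeq2 called Syt1. The deeper young library, where Syt1, Syt9 and Cplx1 were highest, was also the one with the most α-cell and stromal marker RNA, and the part of those cells was not tested.

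The Rab3 and Rab27 role held the largest log2 fold change among the members higher in old cells, that of Rph3a, which encodes rabphilin-3A, an effector of Rab3 and Rab27 on secretory vesicles that also binds SNAP-25. It had 88.4, 87.8 and 95.6 CPM in old libraries (2347, 2891 and 2006 counts), against 5.20 and 0.507 CPM in young ones (35 and 7 counts). Old values were close to each other and far above both young values, which differed by a wide factor. The log2 fold change was 5.11 (SE 0.84, edgeR adjusted p = 0.0134), and the group means were 90.6 ± 4.36 CPM in old cells (SD, n = 3 libraries) and 2.85 ± 3.32 CPM in young cells (SD, n = 2 libraries). Without the shallower young library it was 7.47, and without the deeper one 4.13. Leaving out old library 3 ended the call (edgeR adjusted p = 0.0645). Per kb, Rph3a ranked 20 of 42 members in old cells and 41 in young cells. The gene lies at chr5:121390509-121459527 (mm9, minus strand), and its promoter is the first sequence printed above.

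Rab27b was the member called lower. It encodes one of the pair of Rab27 GTPases, and had 0.113, 0.121 and 0.238 CPM in old libraries (3, 4 and 5 counts), against 5.94 and 11.5 CPM in young ones (40 and 159 counts). No old library came near a young one. Its log2 fold change was -5.76 (SE 1.07, edgeR adjusted p = 0.0191), which lost the call without any 1 of the old libraries (adjusted p = 0.0652 to 0.0787). Rab27a, the paralog that carries granule docking in β cells, had 149.7, 134 and 134 CPM in old libraries, against 54.8 and 116 CPM in young ones, without overlap. Its log2 fold change of 0.70 (SE 0.34) was not called, with an edgeR adjusted p = 0.204. It was 0.26 without the shallower young library, and 1.35 and called without the deeper one (edgeR adjusted p = 0.00699). Per kb, Rab27b made up 0.0321 to 0.0757% of both Rab27 genes in old libraries, against 4.04 and 4.41% in young ones, so Rab27a was the main Rab27 RNA at both ages.

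Sytl4, which encodes granuphilin, the Rab27 effector that docks insulin granules, had 311, 375 and 206 CPM in old libraries, against 145 and 144 CPM in young ones. All old values were higher, with a log2 fold change of 1.04 (SE 0.29, edgeR adjusted p = 0.0577). Sytl4 was called without the filter on low counts (edgeR adjusted p = 0.0236), without the deeper young library (0.0486) and by DESeq2 (0.0171). Rims2, the RIM scaffold that links granules to calcium channels, had 140.4, 84.7 and 127 CPM in old libraries, against 49.0 and 78.8 CPM in young ones, again without overlap (log2 fold change 0.87, SE 0.33, edgeR adjusted p = 0.122). Without the deeper young library Rims2 was called, at 1.27 (edgeR adjusted p = 0.0230), and without the shallower one it was 0.58. Rab3d had 116, 139 and 156 CPM in old libraries, against 124 and 109 CPM in young ones, which overlapped. Rab3a, described after its values were seen, had 70.4, 84.9 and 65.6 CPM in old libraries, against 41.3 and 27.9 CPM in young ones. Its log2 fold change of 1.09 (SE 0.32) had an edgeR adjusted p = 0.0613, and DESeq2 called it. Within the Rab3 family per kb, Rab3a made up 42.7 to 54.7% in old libraries, against 28.2 and 39.4% in young ones, and Rab3d 31.6 to 38.1%, against 41.5 and 44.6%.

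Rims1, the RIM paralog typical of synapses, had 3 counts over all old libraries, against 47 and 20 counts in the young ones. The ratio of old over young, scaled by library size, was 0.0114 with a 95% counting interval of 0.0023 to 0.0349, which covers counting error only. edgeR gave Rims1 an adjusted p = 0.0515, and DESeq2 called it. The other genes of this role, Rab3b, Rab3c, Sytl5, Mlph, Myrip and Rims3, had log2 fold changes of -1.04 to 0.93 and were not called.

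Priming, docking and recycling factors had no call among 10 tested by edgeR, and 2 of the 10 (Cadps and Stxbp5) had an unadjusted p under 0.05. DESeq2 called 2 of this role, Cadps (higher in old cells) and Cplx1 (lower), of 11, where it called 24.5% of the 16835 genes to which it gave an adjusted p. Cplx2, the complexin that clamps and promotes fusion in β cells, had 379, 448 and 464 CPM in old libraries, against 403 and 459 CPM in young ones, a log2 fold change of 0.00 (SE 0.22). Cadps encodes CAPS1, a priming factor of dense-core granules, and had 303, 273 and 296 CPM in old libraries, against 167 and 185 CPM in young ones. Every old value was higher, and the log2 fold change of 0.72 (SE 0.21) had an edgeR adjusted p = 0.0648. Without the deeper young library Cadps was called, at 0.81 (edgeR adjusted p = 0.0376). Napa (α-SNAP, which loads the ATPase NSF on spent SNARE complexes) had 103, 129.7 and 155 CPM in old libraries, against 138 and 108 CPM in young ones. Unc13b, a Munc13 that opens syntaxin, had 94.9, 87.2 and 144 CPM in old libraries, against 152 and 77.6 CPM in young ones. Both overlapped between the ages. Stxbp5 encodes tomosyn, an inhibitor of SNARE assembly, and had 120.2, 95.2 and 120.1 CPM in old libraries, against 56.0 and 80.3 CPM in young ones (log2 fold change 0.71, SE 0.28, edgeR adjusted p = 0.129).

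Cplx1, the complexin of fast synapses, did not pass edgeR's filter on low counts and so has no value in that test. It had 0 counts in all 3 old libraries, against 2 in the shallower and 152 in the deeper young library. Set against 3 counts over the old group, it was at least 201-fold lower in old cells, a bound that rests on the deeper young library. The remaining factors, Stxbp2, Unc13a, Cadps2, Doc2b and Nsf, had log2 fold changes of -0.94 to 0.21.

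The granule membrane proteins IA-2 (Ptprn) and IA-2β (Ptprn2) were among the highest members at both ages. Ptprn had 623, 595 and 920.1 CPM in old libraries, against 817 and 619.7 CPM in young ones, a log2 fold change of -0.01 (SE 0.27). Ptprn2 had 717, 736 and 828 CPM in old libraries, against 536 and 652 CPM in young ones. Its old values were all higher, with a log2 fold change of 0.36 (SE 0.22, edgeR adjusted p = 0.311). Over all 42 members the summed level was 5811, 5965 and 6348 CPM in old libraries, against 4938 and 4763 CPM in young ones.

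**Figure D3:**
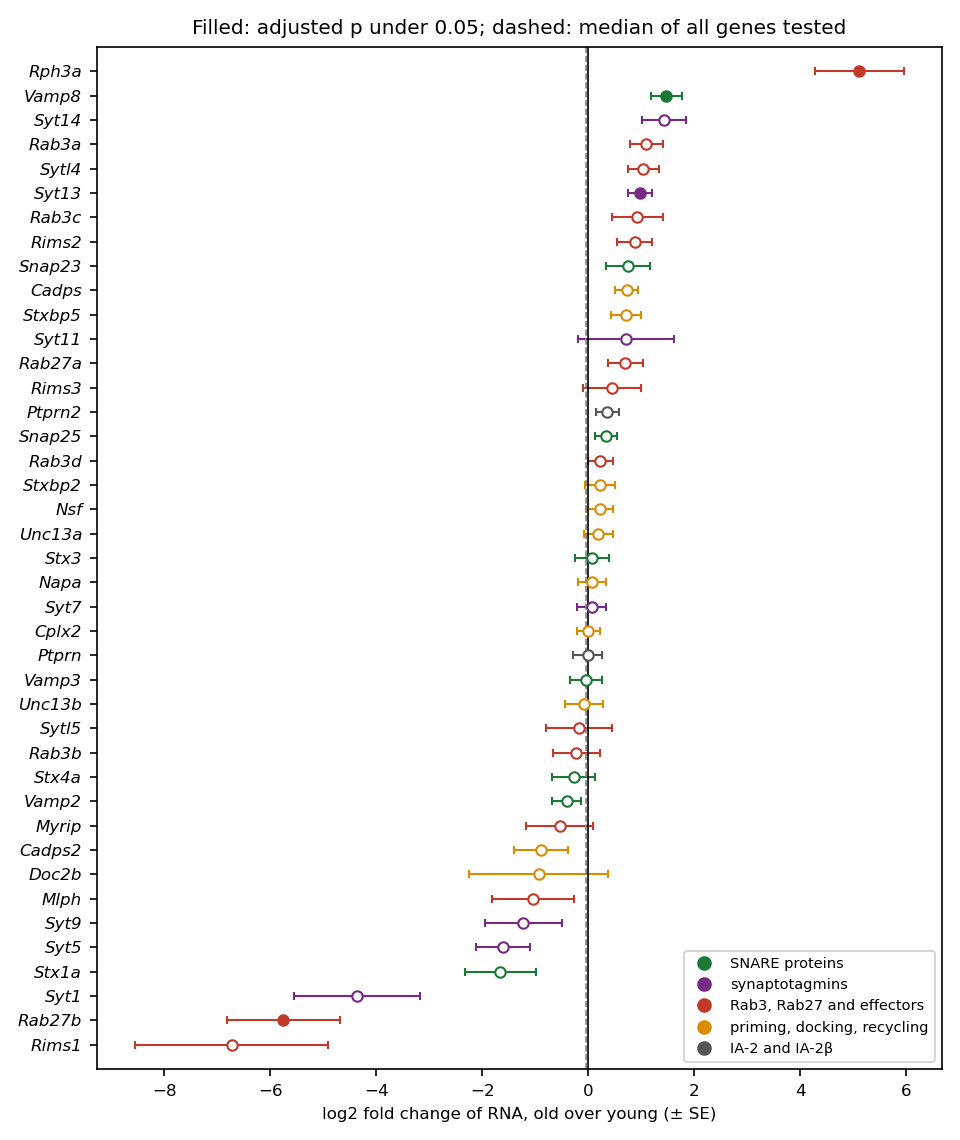
log2 fold change of RNA, old over young, with its standard error (back-calculated from the F statistic) for the 41 members tested, ordered by value and coloured by role. Filled points have an edgeR adjusted p under 0.05 and the dashed line is the median of all genes tested, -0.05. Rph3a stands alone at 5.11, and the members lowest in old cells, Rims1, Rab27b and Syt1, lie at -6.73 to -4.36 with wide errors.

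Of 81 other genes of the pathway, chosen by function but with earlier results of these data known, 76 were tested. Of these, 5 were higher in old cells and 6 lower, which is 14.5% called, against 11.1% of all genes. Higher calls made up 6.58%, against 3.17% of all genes, and lower calls 7.89%, against 7.93%. Of their log2 fold changes 48 were above 0 and 28 below, where 48.2% of all genes were above 0. The median was 0.28, against -0.05 over all genes, and with RLE factors 0.15, against -0.17. Higher were Sv2a, a vesicle glycoprotein (log2 fold change 2.10, SE 0.43, edgeR adjusted p = 0.0253), Exph5, a Rab27 effector (1.37, SE 0.24, adjusted p = 0.0155), Madd, an exchange factor of Rab3 (1.30, SE 0.24, adjusted p = 0.0196), and Syt4 (1.23, SE 0.24, adjusted p = 0.0220). The fifth was Myo5a, the myosin that moves granules along actin. Lower were Myo5c, a myosin of exocrine and epithelial cells (-8.77, SE 0.93, edgeR adjusted p = 0.00452), Sv2c (-4.27, SE 0.83, adjusted p = 0.0216), Rab3il1, an exchange factor of Rab3A (-6.28, SE 1.37, adjusted p = 0.0292), and Syt15 (-4.29, SE 1.06, adjusted p = 0.0403). Syt6 and Napb were the others. All 8 tested acinar, 8 stromal, 7 endothelial and 6 delta and PP cell markers were called lower in old libraries as well. Fewer were called lower in the other lists: 3 of 6 duct, 2 of 7 immune, 1 of 7 α-cell and 1 of 10 neuron and Schwann markers. The part of such cells in these results was not tested.

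Methylation at the starts of the exocytosis genes was low at both ages. It was read from 1000 bases before to 500 after the start, at CpGs with at least 5 reads in both libraries. Of 41 member starts with enough CpGs, 39 were below 20% methylated in old cells and 38 in young cells, that is 95.1% and 92.7%, against 63.8% and 63.5% of the 20485 starts measured. The median difference, old minus young, was 0.19 percentage points over the members and 0.09 over all starts, and it ran from -9.19 to 11.5 over the members. With each CpG counted once, the members' median was -0.07, so its sign depends on the weighting. There is 1 bisulfite library per age, so Fisher's exact test compared those libraries and not the ages, and a call also needed a difference of 10 points. One member passed higher in old cells and none lower, where 3.77% of all starts passed higher and 4.62% lower.

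The start that passed was Mlph, the gene of melanophilin, which joins Rab27a to myosin Va. Its 41 CpGs were 61.3% methylated in old cells (95% Wilson interval 58.8 to 63.7, 1490 calls) and 49.8% in young cells (47.3 to 52.2, 1591 calls), a difference of 11.5 points (Fisher's exact test, adjusted p = 1.11e-09). Much of the window was uneven in depth. The 11 CpGs from 1000 to 500 bases before the start, 96.5% methylated in old cells and 94.5% in young cells, gave 536 calls in old cells and 381 in young cells. From 500 bases before the start to the start, the levels were 39.0% and 38.0%, and over the 500 bases after it 47.0% and 30.9%. With each CpG counted once, an alternative chosen after the data were seen, the difference was 6.82 points and no member start reached 10. The 15 CpGs of the sequence printed above were 33.4% methylated in old cells and 30.3% in young cells, 9 of them higher in old cells and 6 lower.

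Rph3a, whose RNA was far higher in old cells, had 16.0% methylation at its start in old cells (13.9 to 18.2) and 24.9% in young cells (21.9 to 28.2). The difference of -8.98 points (Fisher's exact test, adjusted p = 8.67e-06) was below the size needed for a call, and it was -5.56 points with each CpG counted once. A valley of low methylation lies around the start. From 500 bases before to 1000 after, 37 CpGs were 6.48% methylated in old cells (5.22 to 8.01) and 14.7% in young cells (12.7 to 17.0), and 16 of the 37 were lower in old cells. Methylation was 75.9% in old cells and 76.3% in young cells over the 500 bases before that window. In the printed sequence the 16 CpGs were 4.56% methylated in old cells and 12.9% in young cells. The CpGs at bases 46 and 130 of that sequence had 0 of 31 and 3 of 29 calls methylated in old cells, against 11 of 24 and 19 of 30 in young cells. Of the 16 CpGs, 6 were lower in old cells and 5 higher.

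**Figure D4:**
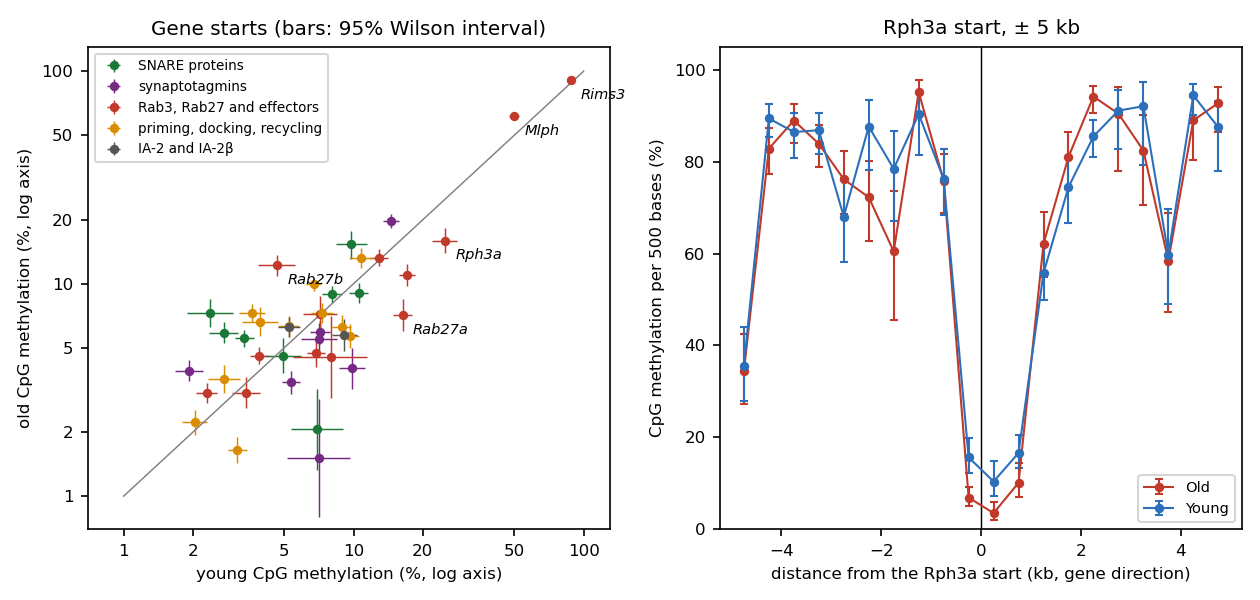
Left, CpG methylation of the 41 member starts in old cells against young cells on log axes, with 95% Wilson intervals and the line of equal values; right, methylation per 500 bases around the Rph3a start in old and young cells. Most starts lie below 20% at both ages, Mlph and Rims3 lie high, and the valley at Rph3a reaches 3.48% in old cells and 10.4% in young cells.

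The largest promoter differences of the other roles were smaller than the call. Vamp8 had 15.3% in old cells and 9.79% in young cells (5.52 points), and the 5 CpGs of its printed sequence had 0 methylated of 77 calls in old cells, against 9.57% of 209 calls in young cells. With each CpG counted once, Vamp8 differed by -1.38 points, so the sign depends on how CpGs are weighted. Syt1 had 3.99% in old cells and 9.84% in young cells, Unc13a 5.66% and 9.68%, and Ptprn 5.74% and 9.13%. The Rab27 pair moved in opposite directions below the size rule: Rab27a had 7.13% in old cells and 16.3% in young cells, and Rab27b 12.2% and 4.64%. Rims3 had the highest level of the member starts at both ages, with 91.1% in old cells and 87.8% in young cells.

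Members with the active and with the repressive mark differed in their median RNA level, with some overlap. A young H3K27ac peak, a mark of active promoters, lay within 1000 bases of the start of 25 members (59.5%), against 34.4% of all starts. Young H3K27me3, the Polycomb mark of silenced genes, lay at 8 member starts, against 28.0% of all starts. No member had both young marks, which 1.66% of all starts had. The 25 acetylated members had a median of 39.9 CPM per kb in old cells and 32.3 in young cells, and the 8 with H3K27me3 had 1.62 in old cells and 2.53 in young cells. The levels overlapped in young cells: the acetylated Syt14 and Syt11 had 6.02 and 6.46 CPM per kb, below Syt9 and Cadps2 with H3K27me3, at 6.91 and 7.84. They overlapped in old cells too, where Rph3a, with young H3K27me3, had 22.0 CPM per kb and the lowest acetylated member 10.6. The 9 members with neither young mark had a median of 11.7 CPM per kb in old cells and 11.6 in young cells.

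H3K27me3 lay at 15 member starts in old cells, against 41.5% of all starts. It was carried at both ages by 5 members: Syt1, Syt9, Rab27b, Rims1 and Cplx1, against 23.2% of all starts. Old cells alone carried it at 10 members, among them Sytl4, Cplx2, Napa, Syt7 and Ptprn2, against 18.4% of all starts. Young cells alone carried it at 3 members, Rph3a, Rab3c and Cadps2, against 4.80% of all starts. Within 2500 bases of the start, Rph3a had it at both ages, since an old region begins at -1474 bases from it, and Rab3c and Cadps2 had it in young cells alone. The old list was the longer, with 38007 regions against 31187, and the lists come from single samples, so no change is read from a missing region alone. The Cplx1 promoter printed above, under H3K27me3 at both ages, was 4.73% methylated in old cells and 3.88% in young cells.

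At Rph3a, the young H3K27me3 region ran over the start (chr5:121449001-121475000, mm9), with a deposited score above that of 90.7% of the young regions. Old regions lay on both sides (chr5:121445001-121457000 and chr5:121461001-121469000) and left 4000 bases around the start uncovered. By score these old regions stood at percentiles 34.3 and 38.0 of their list. An old H3K4me1 peak lay on the start itself (chr5:121459490-121459610) with more at 312 and 873 bases into the gene, and the young peak nearest to the start began 468 bases into the gene. The old peaks stood at score percentiles 50.2, 17.8 and 17.8 of their list, and that young peak at 74.0 of its own. No young H3K27ac peak lay within 1000 bases. The old peak on the start was 1.09% methylated in old cells and 2.01% in young cells. The old peak that began 312 bases into the gene had 26.1% in old cells (46 calls) and 4.55% in young cells (22 calls). The young peak nearest to the start had 9.38% and 6.98%. None of these peaks passed the methylation call. The low methylation, the uncovered stretch and the old peak on the start lie at the same place, and their part in the RNA difference was not tested.

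**Figure D5:**
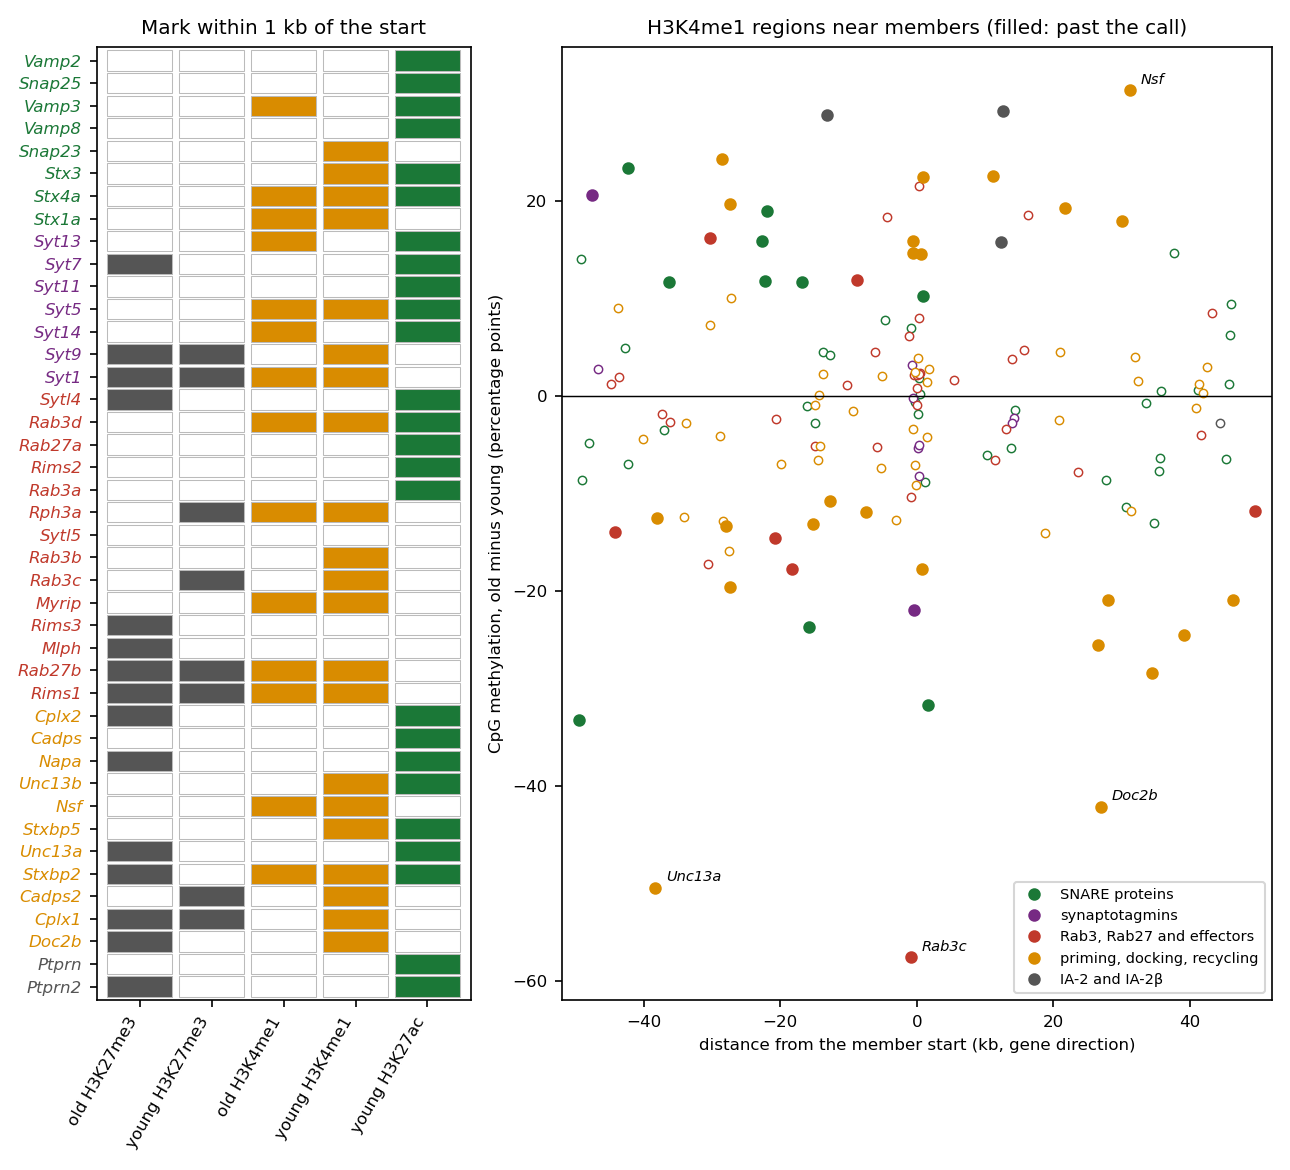
Left, presence (filled) of a histone mark within 1000 bases of each member start, in old and young cells, with genes grouped by role; right, difference in CpG methylation, old minus young, of the 155 H3K4me1 regions near members against the distance from the member start, with filled points past the call. The 25 acetylated members carry no young H3K27me3, which 374 of the 7733 acetylated starts over all genes have. The called regions lie on both sides of 0, 23 higher and 23 lower in old cells.

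H3K4me1, the mark of enhancers and promoter flanks, lay at 14 member starts in old cells, against 30.0% of all starts, and at 21 in young cells, against 45.6%. Here the young list was the longer, with 77291 peaks against 36207, so no change is read from a missing peak alone. Within 50 kb of the member starts there were 376 merged H3K4me1 regions, and 155 of them, near 34 members, had at least 3 CpGs covered. Their median methylation difference, old minus young, was -0.92 points, against -1.04 over all 34400 regions. By Fisher's exact test 23 regions passed lower in old cells (14.8%) and 23 passed higher (14.8%), against 17.2% and 9.71% of all regions. The direction varied with the list that held the peak. Of 35 regions from the old list only, 11 passed higher and 3 lower. Of 80 from the young list only, 6 passed higher and 14 lower, and of 40 in both, 6 and 6. The same split over all regions is not given here. Of the 46 that passed, 25 had the member's own start as the nearest gene start, and 13 lay inside the member's transcribed span (54.3% and 28.3%), against 46.5% and 23.9% of all 155.

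The largest difference was at Rab3c, a granule Rab3, at -895 bases from its start (chr13:111071246-111071372, mm9, a peak of the young list only). Methylation there was 14.0% in old cells (6 of 43 calls) and 71.4% in young cells (15 of 21 calls), so few calls stand behind it. At Unc13a, at -38301 bases from the start and inside the neighbouring gene Fcho1, methylation was 24.6% in old cells and 75.0% in young cells. A region inside Unc13a itself, 11138 bases after its start, passed higher, with 53.9% in old cells and 31.4% in young cells. Near Doc2b, a calcium sensor for fusion, 4 regions passed and all were lower in old cells, the largest with 30.2% in old cells and 72.3% in young cells, 26980 bases after the start.

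A region inside Vamp8, 1572 bases after its start, had 49.2% in old cells and 80.9% in young cells. A larger difference lay at -49533 bases from the Vamp8 start, but 642 bases from the start of another gene, Mat2a, with 1.39% in old cells and 34.6% in young cells. At Syt9, at -442 bases from the start, methylation was 6.61% in old cells (227 calls) and 28.6% in young cells (294 calls). Near Rph3a one region passed, at -20804 bases from the start, with 10.7% in old cells and 25.2% in young cells. The largest losses near Vamp3, Rab27a, Stxbp2 and Stxbp5 lay between -28.4 and -17.8 points. Those of Vamp3, Rab27a and Stxbp2 lay inside the neighbouring genes Camta1, Pigb and Trappc5. Closer to their starts, Stxbp2 and Stxbp5 had gains past the call. At Stxbp2 they were 15.8 points at -561 bases and 14.5 points at 588 bases, and at Stxbp5 14.7 points at -520 bases.

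Regions higher in old cells included Nsf, the ATPase that takes spent SNARE complexes apart, where a region 31236 bases after the start had 86.9% in old cells and 55.6% in young cells. Nsf also held a region 831 bases after the start with 22.4% in old cells and 0 methylated of 91 calls in young cells, and losses elsewhere. All 3 called regions near Ptprn were higher, the largest with 52.5% in old cells and 23.3% in young cells, inside the gene 12595 bases after its start. Unc13b had its largest difference at -28563 bases from the start, inside the neighbouring gene Stoml2, with 62.5% in old cells and 38.2% in young cells. A region inside Unc13b itself, 737 bases after its start, passed lower, with 0.909% in old cells and 18.6% in young cells. The largest gains near Snap25, Syt7, Rab3a, Vamp2, Cplx2, Napa, Stx1a and Stx4a lay between 10.2 and 23.4 points. Those of Rab3a, Napa and Stx1a lay inside the neighbouring genes Pde4c, Kptn and Wbscr25. Rab3a and Cplx2 also had a region that passed lower, at -11.8 and -10.8 points. Rab3d was the last member with a call, and its largest difference was -13.9 points, inside the neighbouring gene Epor. Another region near Rab3d passed higher, by 11.9 points.

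Split by acetylation, a split chosen after the values were seen, 32 of these regions overlapped a young H3K27ac peak. Of them, 9 passed higher in old cells and 1 lower (28.1% and 3.12%), against 9.08% and 19.4% of all acetylated regions. The 9 lay near 9 different members. Those near Snap25, Stxbp5 and Ptprn had the member's own start as the nearest, and all the others the start of another gene. The single loss was the region beside Mat2a.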

How the data were processed

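RNA-seq, ChIP-seq and bisulfite files of sorted β cells were analysed as deposited. The members and gene lists were chosen with earlier results of these data known. CASAVA 1.8.2, Bowtie 0.12.7, STAR, HOMER, edgeR and the build mm9 are named, per the submitters' processing notes, without their roles, and the strand setting of read counting was not given in any source used here. RNA values were read counts per RefSeq transcript, as deposited by the authors. The authors' deposited FPKM values served only to recover transcript lengths, since their 17-month column repeats the shallower young column. Peak scores were those the authors deposited, from HOMER with 1 input library per the file headers for H3K4me1 and H3K27ac, and without a header for H3K27me3. Bisulfite tables, as deposited by the authors, gave the methylated fraction and read count per CpG with both strands merged.

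For each gene the transcript with the highest count was used. edgeR 4.0.16 (R 4.3.3, TMM factors, filterByExpr, quasi-likelihood test) was fitted over the 3 old and 2 young libraries, two-sided, with Benjamini-Hochberg adjustment over all genes tested, and DESeq2 1.42.0 was an alternative. The design text calls the RNA libraries biological replicas, each from its own pool of mice. The SE of a log2 fold change was back-calculated from the edgeR test, as its absolute value divided by the square root of the F statistic. CPM are TMM-scaled, and levels per kb were divided by transcript length. Methylation calls were summed over CpGs with at least 5 reads in both libraries, over windows with at least 5 CpGs and H3K4me1 regions with at least 3, and compared with a two-sided Fisher's exact test adjusted over all windows or regions (scipy 1.17.1, Python 3.11.15). Wilson 95% intervals cover counting error only. Marks within 1000 bases of starts were counted without a test. The fits were tested on simulated data. Values are given for every library for the members called and up to 4 members per role with the highest mean CPM, for the starts and regions past the call and for the largest promoter difference per role. Rab3a, Syt14, Syt1, Syt9, Stx1a, Rims1, Cplx1 and Stxbp5 were added after their values were seen where they are not covered by that rule.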

Additional observations from a re-analysis of the deposited data

How the results depend on the processing

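Of the members, edgeR called 4 (9.76%, against 11.1% of all genes), 9 without the filter on low counts (21.4%, against 11.9%) and 5 with RLE factors (2 higher and 3 lower, against 3 and 1; 12.2%, against 11.2%), and DESeq2 called 13 (31.0%, against 24.5%). With 1 library left out it was 0 to 17, with 0 without old library 3 (2.44% of all genes) and 17 without the deeper young library (41.5%, against 32.1%). Over all genes, 1724 were called by edgeR, 2492 without the filter, 4123 by DESeq2 and 331 to 5467 with 1 library left out. No member start passed the methylation call with a window of 500 bases on either side (0) or a difference of 20 points (0), against 1. Called regions numbered 20 with a difference of 20 points and 20 within 20 kb, against 46. Young H3K27ac lay at 15 starts when only the higher-scored peaks of the list were kept (22.1% of all starts), and old H3K4me1 at 6 with 200 bases covered (6.88%) and at 23 within 2500 bases (39.9%). A coverage limit of 200 reads, chosen after seeing the data, left 1 start and 46 regions. Old H3K4me1 peaks had a median width of 120 bases, so a single peak of that width cannot cover 200. The cause of the other shifts was not tested. No result changed its called direction. No paired analysis was possible because the young columns carry no replicate number. With 2 young libraries that differ in depth and in other-cell markers, and 1 library per age for methylation and marks, small differences were not detectable.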
